A study of Mus musculus with 8 samples.

Results

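Sertoli cells are the somatic cells of the seminiferous tubule that enclose and nurse the germ cells, and 9 genes that mark their identity or carry their hormone signals were followed in testis RNA of mice with and without CTCFL. The genes were Amh, Sox9, Wt1, Gata4, Fshr, Clu, Inha, Dhh and Rhox5. They were chosen by name as textbook genes of this cell type, though with earlier results of these data known. They were represented by 16 of the 45101 probe sets of the array, a probe set being a group of short probes against one transcript. RNA came from testes at postnatal day 23 and was hybridised to 8 Affymetrix Mouse430_2 arrays, 1 per sample, of which 5 carry the label wildtype (replicates 1, 2, 4, 6 and 7) and 3 the label CTCFL mutant (replicates 3, 5 and 8). According to the study's methods, the animals were littermates kept on a C57/Bl6 background, the mutants were homozygous (del/del) for a Ctcfl allele that lost part of its exons in mice expressing Cre, from an Actin-Cre transgene as the legends name it, and carries the coding sequence of GFP, and the controls were heterozygous (del/+). The control samples therefore carry the name of their label, wildtype, although the study describes 1 deleted allele in them. The labels do not say whether a sample was 1 animal, so the p-values measure the spread between these samples. The level of Ctcfl itself was not analysed here.

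CTCFL, also called BORIS, is a paralog of the zinc finger protein CTCF and is known from male germ cells. SOX9, switched on by SRY in the embryonic gonad, commits the supporting cells to the Sertoli fate, with WT1 and GATA4 acting beside it, and anti-Müllerian hormone is the hormone by which these cells make the Müllerian duct regress. After birth the cells are driven by follicle-stimulating hormone (FSH) and by androgen, answer the pituitary with inhibin, and send the ligand Desert hedgehog to the peritubular and Leydig cells outside the tubule.

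All values below are log2 levels, quantile normalised across arrays by the authors, so a difference of 1 is a doubling. Levels are compared between arrays within a probe set and never between genes, since probes differ in brightness. The arrays had median levels between 6.40 and 6.45. A principal component analysis of all probe sets set wildtype replicate 7 (40.2 on the first component) and mutant replicate 8 (38.2) away from the rest. The rest lay between -24.8 and -3.10. These other 6 arrays, said below to lie together, do so on this first component, which held 44.9% of the variance. On the second, with 15.7%, wildtype replicates 4 (-23.8) and 6 (-17.7) lay lowest. Replicates 1, 2, 3 and 5 lay between 3.53 and 11.6 there. Results that rest on the pair of wildtype replicate 7 and mutant replicate 8 are given with and without it. The label testis could be checked only roughly, since a level set against the median of its array also depends on the brightness of the probes. On this scale 8 of the 9 Sertoli genes, and all 8 genes of a spermatocyte list, were above the median on every array, and Amh was so on 7 of 8. Of 7 genes of the granulosa cells of the ovary, 6 were below it on every array, among them Foxl2, the regulator of that cell fate. All these counts use a single probe set per gene, chosen in part for its high level, which favours values above the median.

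Between mutant and wildtype testis, no Sertoli gene passed the test. With limma, 0 of the 16 probe sets had an adjusted p under 0.05, with 0% of all 45101 probe sets called, and the adjusted p was 1.0 for each. At an unadjusted threshold of 0.05, 1 of the 16 was higher in the mutants, the probe set of Fshr, where 1.76% of all probe sets were higher and 1.70% lower. The differences were small, from 0.00036 to 0.19, or at most 1.14-fold, and all 16 lay above 0, as did 51.5% of all probe sets. Their median was 0.097, against 0.0032 over all probe sets. Some other cell types of the testis also differed, with 9 of 10 Leydig probe sets above 0 at a median of 0.15 and 0 of 16 spermatid probe sets above 0 at a median of -0.23. Spermatogonia had 9 of 15 above 0 (median 0.045) and spermatocytes 2 of 9 (median -0.089). Medians lay near 0 for the peritubular (0.0026, 5 of 10 above 0), macrophage (0.011, 7 of 8) and endothelium lists (-0.0036, 2 of 7). The part of these cell types in the Sertoli differences was not tested. The 16 probe sets are not independent, since they share 8 arrays, a cell type and in part a gene. In 0 of them did the 3 mutant values clear the 5 wildtype values, where 1.38% of all probe sets did so upwards and 1.31% downwards. The plot of levels by array shows this overlap for each gene.

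**Figure D1:**
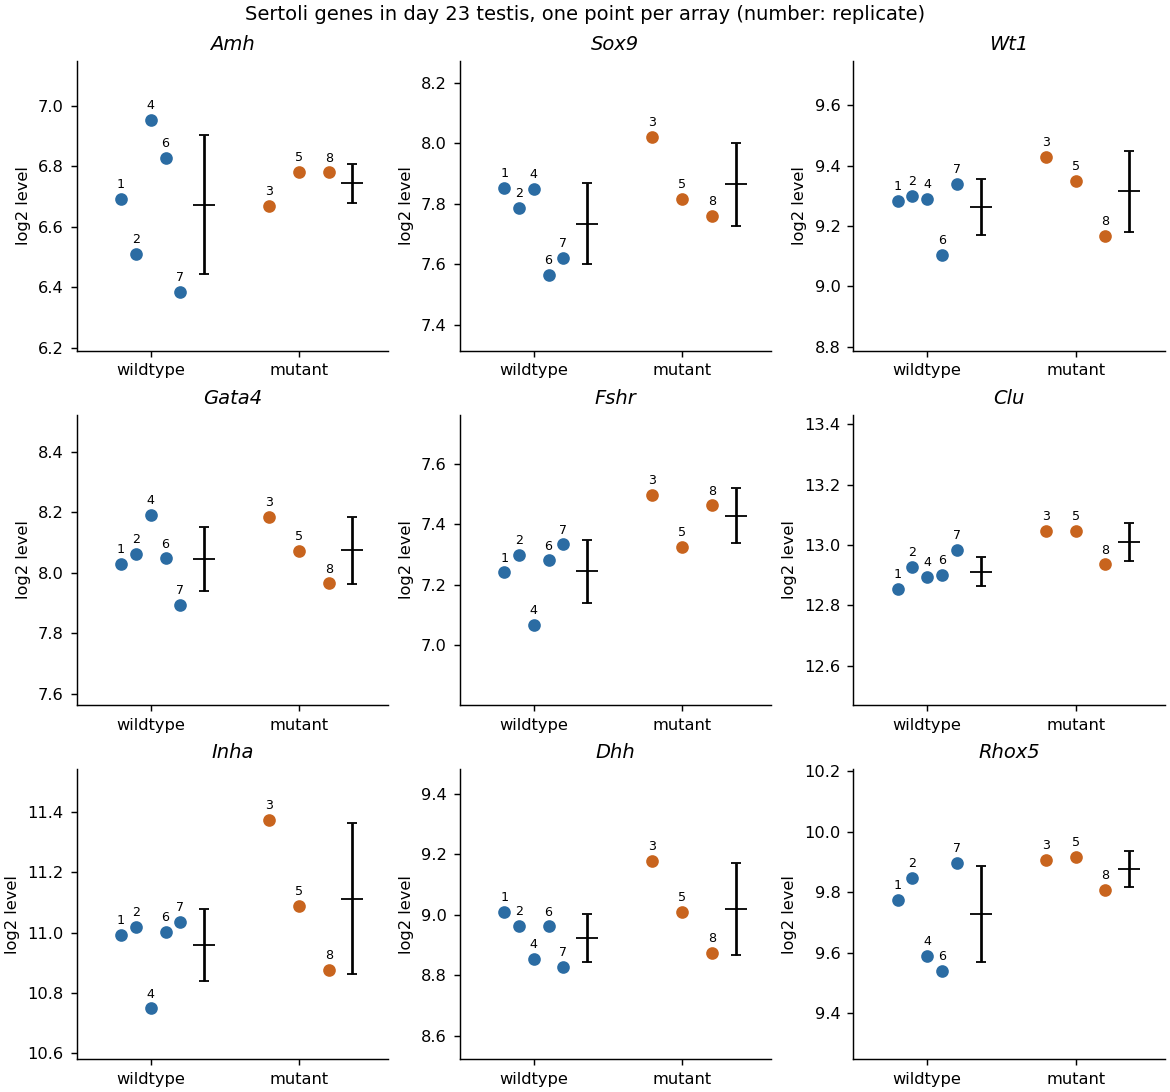
Log2 level (vertical axes, each spanning the same width) of the main probe set of each of the 9 Sertoli genes on the 5 wildtype (blue) and 3 mutant (orange) arrays, with the replicate number above each point and the mean ± SD in black beside each group. The groups overlap in every panel, and the Fshr difference of 0.18 is the one with the smallest p.

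The 3 transcription factors that define the cell were described first. Sox9 was represented by 3 probe sets, and the one chosen by rule read 7.85, 7.79, 7.85, 7.56 and 7.62 in wildtype replicates 1, 2, 4, 6 and 7 and 8.02, 7.82 and 7.76 in mutant replicates 3, 5 and 8. Mutant replicate 3 was the highest of the 8 arrays, while the other mutant values lay inside the wildtype range. The 5 wildtype arrays averaged 7.73 ± 0.13 (SD) and the 3 mutant arrays 7.87 ± 0.14 (SD), a difference of 0.13 with a 95% interval of -0.081 to 0.34. Without mutant replicate 3 this Sox9 difference was 0.053. A second Sox9 probe set differed by 0.13 (interval -0.059 to 0.31), and the third, which lay below the array median on all arrays, by 0.057.

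Wt1, the Wilms tumour zinc finger protein that keeps Sertoli cells in their fate, had 1 probe set, whose suffix marks probes shared by several transcripts. It read 9.28, 9.30, 9.29, 9.10 and 9.34 in wildtype and 9.43, 9.35 and 9.17 in mutant testis. Mutant replicates 3 and 5 were just above all wildtype arrays, and mutant replicate 8 was below all of them but replicate 6. The difference of the means was 0.052 (SE 0.083), with an interval of -0.13 to 0.24.

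Gata4, the zinc finger factor shared by Sertoli and Leydig cells, read 8.03, 8.06, 8.19, 8.05 and 7.89 in wildtype and 8.19, 8.07 and 7.96 in mutant testis. The mutant values fell within the wildtype range, and the means differed by 0.029 with an interval of -0.16 to 0.21, the smallest difference among the main probe sets of the 9 genes. The other Gata4 probe set was above the array median on 1 of 8 arrays and ranged more widely, from 5.81 to 6.33 in wildtype and from 5.70 to 6.51 in mutant testis. It differed by 0.092, with an interval of -0.31 to 0.49 that is the widest of the 16.

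The hormones and ligands came next. Amh, which Sertoli cells express strongly before puberty and then shut down under androgen, read 6.69, 6.51, 6.95, 6.83 and 6.38 in wildtype and 6.67, 6.78 and 6.78 in mutant testis. The wildtype arrays spread over 0.57, and their SD of 0.23 stood at the 91.2nd percentile of all probe sets, while the mutant arrays lay within 0.11 of each other. The means of 6.67 and 6.74 differed by 0.071, with an interval of -0.20 to 0.35, so that the spread of wildtype testes was larger than the difference.

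Inha, the alpha subunit that makes a dimer inhibin rather than activin, read 10.99, 11.02, 10.75, 11.00 and 11.04 in wildtype and 11.37, 11.09 and 10.88 in mutant testis. Here mutant replicate 3 was far above, and mutant replicate 8 lay between wildtype replicate 4 and the other wildtype arrays. The 5 wildtype arrays averaged 10.96 ± 0.12 (SD) and the 3 mutant arrays 11.11 ± 0.25 (SD), and the difference of 0.15 had an interval of -0.10 to 0.41. Without mutant replicate 3 this difference was 0.022, and without wildtype replicate 7 and mutant replicate 8 it was 0.29 at an unadjusted p of 0.0292 and a limma adjusted p of 0.757.

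Dhh encodes Desert hedgehog, which is received by PTCH1 on the neighbouring cells and is needed for the fetal Leydig cells to differentiate. Its main probe set read 9.01, 8.96, 8.85, 8.96 and 8.83 in wildtype and 9.18, 9.01 and 8.87 in mutant testis. The order of the mutant arrays was that of Inha, with replicate 3 at the top and replicate 8 at the bottom. The main probe sets of Sox9, Wt1, Gata4 and Clu had this order too. The means differed by 0.097 (interval -0.088 to 0.28) for this probe set and by 0.19 (interval -0.099 to 0.48) for the other, whose values ran from 6.63 to 7.01 in wildtype and from 6.73 to 7.19 in mutant testis. Without mutant replicate 3 the main probe set of Dhh differed by 0.018.

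Fshr, Clu and Rhox5, a receptor, a secreted product and a gene expressed under androgen, were compared last. Fshr, the receptor for FSH that within the testis is found in Sertoli cells, read 7.24, 7.30, 7.07, 7.28 and 7.33 in wildtype and 7.50, 7.32 and 7.46 in mutant testis. Mutant replicates 3 and 8 were above all wildtype arrays, and mutant replicate 5 lay just below wildtype replicate 7. The 5 wildtype arrays averaged 7.24 ± 0.10 (SD) and the 3 mutant arrays 7.43 ± 0.091 (SD), and the difference of 0.18 had an interval of 0.0065 to 0.36, an unadjusted p of 0.0435 and a limma adjusted p of 1.0. The exact two-sided permutation test over the 56 assignments of the arrays gave p = 0.0714 for Fshr, where the smallest p it allows is 0.0357. The limma p of Fshr passed 0.05 without wildtype replicate 7 or mutant replicate 5, and it lay between 0.0510 and 0.142 without any other single array. Fshr was the 1324th of all probe sets in order of p. Within the 6 arrays that lay together it differed by 0.19, at an unadjusted limma p of 0.0792, and between mutant replicate 8 and wildtype replicate 7 by 0.13.

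Clu encodes clusterin, a secreted chaperone that is a major Sertoli product and is also made by the epididymis. Its 4 probe sets all carry suffixes for probes shared between transcripts. The one chosen by rule read 12.85, 12.93, 12.89, 12.90 and 12.99 in wildtype and 13.05, 13.05 and 12.94 in mutant testis. Wildtype arrays differed by 0.13 at most, and this SD of 0.048 was at the 6.13th percentile of all probe sets. Mutant replicates 3 and 5 were above all wildtype arrays and mutant replicate 8 was not. The difference of the means was 0.097 (SE 0.063), with an exact permutation p of 0.0714. The other 3 probe sets differed by 0.13, 0.080 and 0.00036. The last of them had a mean of 12.77 in both groups, so the probe sets of Clu did not give one size for the difference. The levels of 7 epididymal genes were added on the linear scale and the sum was given as log2. It was 8.16 to 8.57 in wildtype and 8.26 to 8.68 in mutant testis, and 6 of the 7 genes were below the array median on all arrays. Their part in the Clu level was not tested.

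Rhox5 is a homeobox gene on the X chromosome that Sertoli cells express under androgen. It read 9.77, 9.85, 9.59, 9.54 and 9.90 in wildtype and 9.91, 9.92 and 9.81 in mutant testis. The mutant arrays were close together at the upper end of a wildtype range of 0.36, in which replicates 4 and 6 were low. The difference of the means was 0.15, with an interval of -0.063 to 0.36 and an exact permutation p of 0.179.

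**Figure D2:**
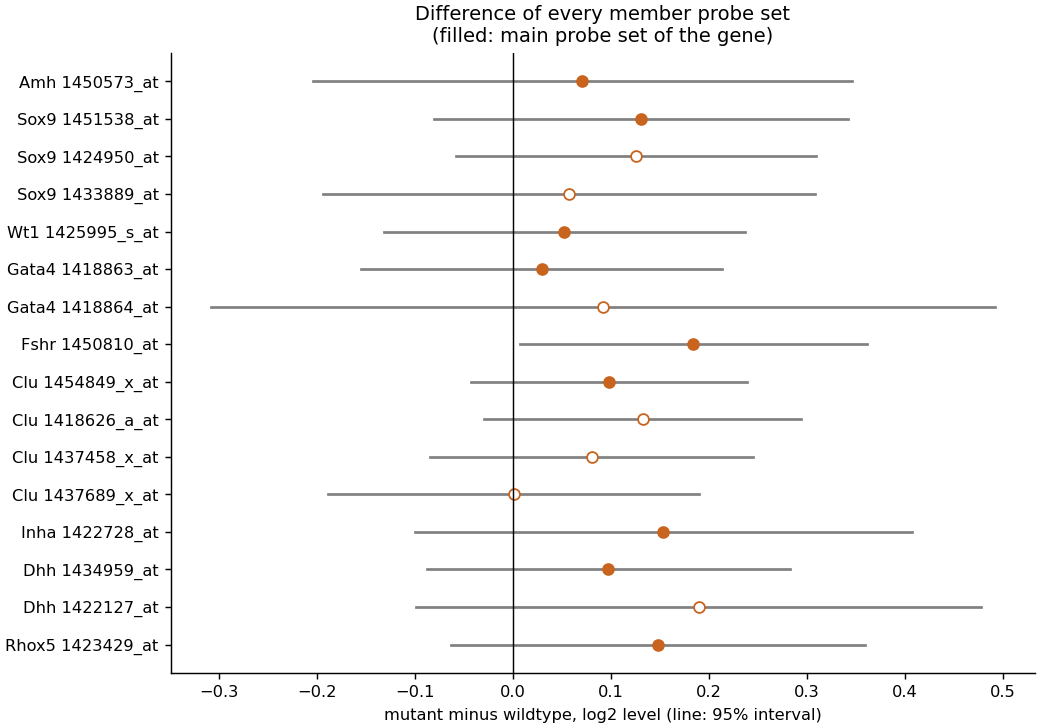
Mutant minus wildtype log2 level (horizontal axis) of all 16 probe sets of the 9 genes, with the 95% interval from the limma fit as a line and the main probe set of each gene filled. All points are at or above 0, and 15 of the 16 intervals include 0, the exception being Fshr at 0.0065 to 0.36.

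The 16 probe sets were then followed across arrays rather than between groups. Mutant replicate 3 held the highest of the 8 values for 10 of the 16, mutant replicate 5 for 1 and mutant replicate 8 for 0. Against the wildtype mean, mutant replicate 5 was above for all 16, mutant replicate 3 for 15 and mutant replicate 8 for 8. The same counts over all probe sets are not given here, so these have no background. The mean of the centred levels of the 9 genes was 0.16 in mutant replicate 3 and 0.062 in mutant replicate 5, against -0.024 in mutant replicate 8 and -0.069 to -0.013 in wildtype arrays. Without mutant replicate 3 the median difference of the 16 probe sets was 0.053 with 11 above 0, and without mutant replicate 8 it was 0.17 with 16 above 0. Of all probe sets 51.3% lay above 0 in either case.

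**Figure D3:**
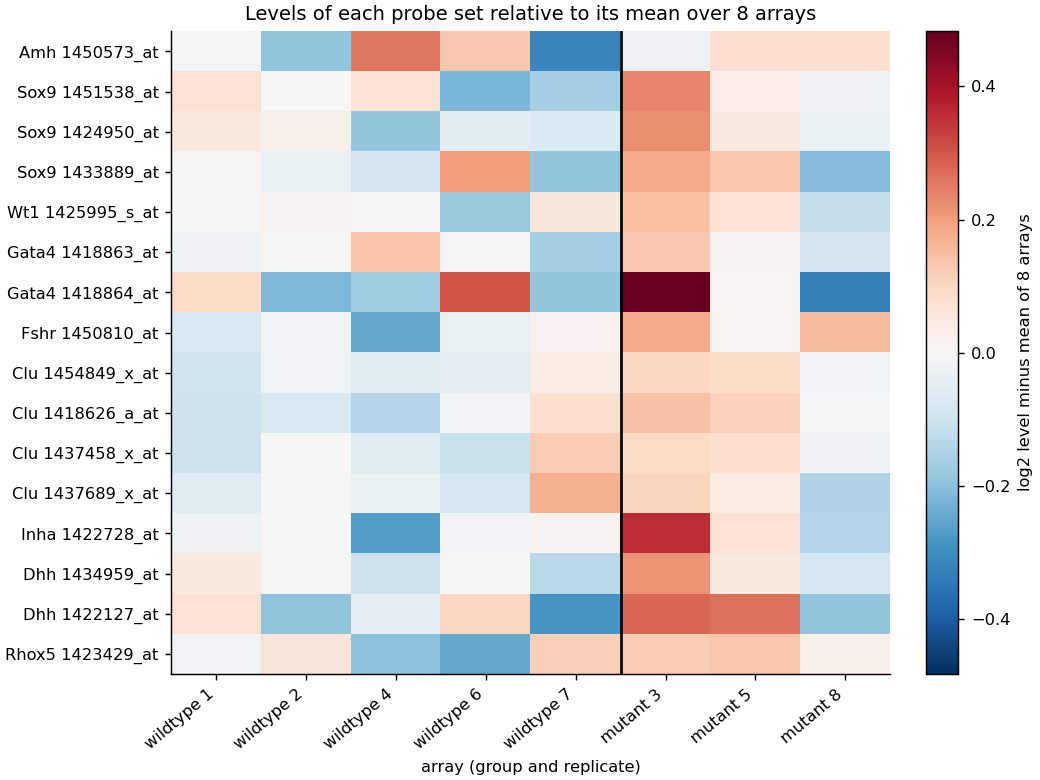
Log2 level of each of the 16 probe sets minus its own mean over the 8 arrays (colour), by array, with wildtype arrays to the left of the line and mutant arrays to the right. Mutant replicate 3 is highest for 10 of 16 probe sets, and mutant replicate 8 is highest for none.

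How far the genes moved together was described by Pearson's r over the 8 arrays, which share 1 normalisation. Of the 36 pairs of main probe sets, 29 were positive and 7 negative, with a median of 0.41 and a range of -0.65 to 0.84. Inha and Dhh were the closest pair over the 8 arrays, at 0.84. Among the 6 arrays that lay together they were at 0.98, and Fshr and Inha were closer, at 0.99. Amh was the member least like the rest. It was at -0.26 with the mean of the other 8 genes and at -0.65 with Rhox5, whereas each of the others was between 0.41 and 0.81 with the mean of its own other 8. Among the 6 arrays that lay together, Amh was at -0.48 and the others at 0.35 to 0.84.

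Sequences before a listed start of Fshr, Inha and Dhh are shown. Fshr had the smallest p of the members, and Inha and Dhh varied together most closely. The sequences come from the set of RefSeq promoters (GRCm38.p6) used here, which held a start for 4 of the 9 genes. Each is the run of 250 bases before that start, written in the direction of the gene. The Inha sequence begins with codons of inhibin alpha itself, so its listed start lies inside the gene. It is therefore not the Inha promoter. Letters searched on both strands, from 250 bases before to 50 after the start, were AACAAT (SOX factors), the GATA motif in any of its forms AGATAA or else AGATAG or else TGATAA or else TGATAG, the NR5A1 motif as AAGGTCA or else AAGGCCA, the cyclic AMP response motif as TGACGTC or else TGCGTCA, and the E-box CACGTG, which reads the same on both strands. Matches are in capitals.
Fshr, chr17:89200676-89200925, minus strand: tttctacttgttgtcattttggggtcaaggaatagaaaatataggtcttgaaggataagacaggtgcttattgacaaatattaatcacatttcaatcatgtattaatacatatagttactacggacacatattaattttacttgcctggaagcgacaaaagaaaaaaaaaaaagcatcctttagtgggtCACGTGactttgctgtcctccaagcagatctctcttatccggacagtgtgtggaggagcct
Inha, chr1:75507359-75507608, plus strand: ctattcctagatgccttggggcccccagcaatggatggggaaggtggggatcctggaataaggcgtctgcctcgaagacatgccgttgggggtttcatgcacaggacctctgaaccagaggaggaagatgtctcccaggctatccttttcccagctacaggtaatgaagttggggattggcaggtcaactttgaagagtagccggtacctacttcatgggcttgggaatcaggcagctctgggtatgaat
Dhh, chr15:98898541-98898790, minus strand: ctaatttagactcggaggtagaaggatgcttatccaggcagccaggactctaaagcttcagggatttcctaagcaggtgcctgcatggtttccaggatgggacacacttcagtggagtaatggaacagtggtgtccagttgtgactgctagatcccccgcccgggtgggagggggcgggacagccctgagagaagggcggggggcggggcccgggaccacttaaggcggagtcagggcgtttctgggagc

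The Fshr sequence held the E-box letters once, at position -61 from the start, and 7.15% of the 32851 promoters in the set hold them. Rhox5, the fourth gene with a start in the set, held the SOX letters once, on the opposite strand at position -227, as 10.7% of promoters do. None of the other letters occurred in the windows of these 4 genes, where the GATA letters are in 29.8% of all promoters, the NR5A1 letters in 10.6% and the cyclic AMP letters in 5.17%. Since the Inha window lies inside the gene, it cannot show which letters the Inha promoter holds. A match is a description of letters in this window and not a site.

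The pair of arrays set away from the rest also differed from them in the transcripts of other cells. The mean level of 9 spermatid genes was 11.4 on wildtype replicate 7, 10.9 on mutant replicate 8 and 8.67 to 9.48 on the other 6 arrays. The mean level of 6 fat genes was 6.61 and 6.53 on this pair and 4.78 to 5.41 on the others. Added over the list on the linear scale and given as log2, the spermatid level ran from 12.4 to 14.7 in wildtype and from 12.2 to 14.2 in mutant testis. The same sum for the Sertoli genes ran from 13.5 to 13.7 in wildtype and from 13.6 to 13.8 in mutant testis. Bright probe sets, here that of Clu, weigh most in such a sum. Wildtype replicate 7 was above the mean of the other wildtype arrays in 8 of 16 probe sets and below it in the rest. Mutant replicate 8 was above the mean of the other mutant arrays in 2 of 16, with a median departure of -0.16. In bulk RNA, fewer cells of a type and less RNA per cell cannot be told apart. Within the 6 arrays that lay together, 15 of the 16 Sertoli probe sets had a higher mean in the 2 mutant than in the 4 wildtype arrays, with a median difference of 0.16, and Amh was the exception at -0.020. Of all probe sets 49% lay above 0 in these arrays, with a median of -0.0024. Of the pair set away, mutant replicate 8 exceeded wildtype replicate 7 in 7 of 16 probe sets, with a median difference of -0.034 that has no replicate check.

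**Figure D4:**
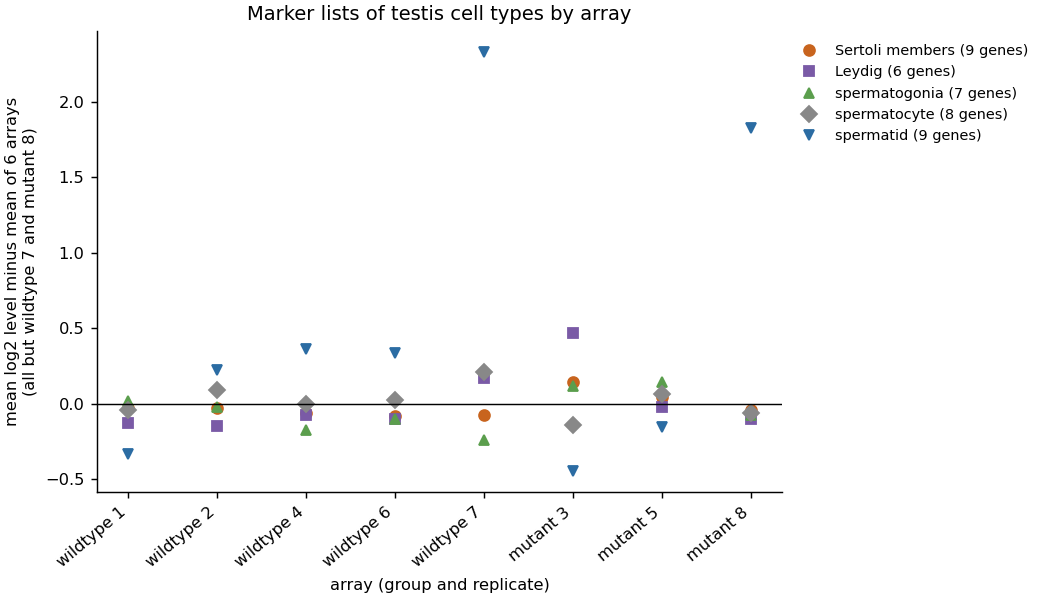
Mean log2 level of 5 marker lists on each array (horizontal axis), minus the mean of the 6 arrays other than wildtype replicate 7 and mutant replicate 8 (vertical axis). The spermatid list stands far above 0 on those arrays, while the Sertoli genes stay near 0 on all arrays, highest on mutant replicate 3.

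Other cell types also differed on mutant replicate 3, where most Sertoli genes were highest. A list of 6 Leydig genes had a mean level of 9.07 there, against 8.46 to 8.77 in wildtype and 8.50 and 8.58 in the other mutant arrays. Its sum on the linear scale, given as log2, ran from 12.2 to 12.8 in wildtype and from 12.1 to 12.9 in mutant testis. The spermatid list had its lowest mean there, 8.67, and so had the spermatocyte list, at 10.79 against 10.87 to 11.14 on the others. The part of these cell types in the Sertoli values was not tested.

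The partners of the 9 genes were taken from 7 lists, whose counts are to be read against all probe sets, of which 1.76% were higher and 1.70% lower at an unadjusted p under 0.05, and 1.38% higher and 1.31% lower without overlap of the groups. Of the AMH pathway, 0 of 23 probe sets passed the adjusted threshold, 2 were higher and 0 lower at an unadjusted p under 0.05, and the median difference was 0.035. Both of the 2 belonged to Amhr2, the receptor that binds AMH and is carried by Sertoli and Leydig cells. Its main probe set read 10.36, 10.41, 10.43, 10.46 and 10.44 in wildtype and 10.82, 10.57 and 10.55 in mutant testis, so that the groups did not overlap. The Amhr2 difference was 0.23 (SE 0.076), or 1.17-fold, at an unadjusted p of 0.0145, a limma adjusted p of 1.0 and an exact permutation p of 0.0357. The other 2 probe sets of Amhr2 differed by 0.12 and 0.19 and overlapped. The type I receptors Bmpr1a and Acvr1, the SMAD proteins that pass the signal on (Smad1, Smad5, Smad9 and Smad4) and the inhibitory Smad6 lay between -0.18 and 0.14.

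For inhibin and activin, 0 of 22 probe sets passed either threshold, and their median was 0.0097. Inhbb, the beta subunit that joins the alpha subunit in inhibin B, differed by 0.040 (SE 0.11), and Inhba, the other beta subunit, by 0.075 (SE 0.10). Acvr2a, an activin receptor, differed by 0.11, and Tgfbr3, the coreceptor for inhibin, by -0.038 (SE 0.12). Fst, the activin antagonist follistatin, was below the array median on all arrays and differed by 0.0078 on its main probe set. Acvr1b, which had the smallest p of this list, differed by -0.097 on its second probe set.

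Downstream of the FSH receptor, 0 of 38 probe sets passed, and at an unadjusted p under 0.05 there were 2 higher and 1 lower, with a median of 0.031. The smallest p was that of 1 of 6 probe sets of Creb1, the cyclic AMP response factor, which differed by 0.27 while the other 5 lay between -0.088 and 0.054. The others at that threshold, named after their values were seen, were 1 of 2 probe sets of Arrb2, the beta-arrestin that uncouples the receptor, at 0.27 and 1 of 5 of Gnas, the stimulatory G protein subunit, at -0.28 and below the array median. In the hedgehog pathway 0 of 32 passed, 1 was higher and 1 lower at the unadjusted threshold, and the median was -0.0018. Ptch1, the receptor and target gene of Desert hedgehog, differed by 0.12, -0.058 and -0.040 on its 3 probe sets, Smo by -0.11 on its main probe set, and Gli1, the usual readout of the pathway, by -0.060 at a level below the array median. Cdon, a hedgehog coreceptor, read 7.69 to 7.81 in wildtype and 7.91 to 7.99 in mutant testis on its main probe set, a difference of 0.21 without overlap, while its other probe set differed by -0.11. The probe set without overlap in the lower direction was 1 of 3 for Gas1, another coreceptor, at -0.15 and a low level of 5.20 to 5.44, and it is named after its values were seen.

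Among the regulators of testis determination, 0 of 36 probe sets passed, 1 was higher and 0 lower at the unadjusted threshold, and the median was 0.042. That one was Ptgds, the prostaglandin D synthase that acts with SOX9 in the fetal testis. It read 6.17, 6.32, 6.52, 6.31 and 6.31 in wildtype and 6.58, 6.84 and 6.99 in mutant testis, a difference of 0.48 (SE 0.11), or 1.39-fold, at an unadjusted p of 0.0012, a limma adjusted p of 1.0 and an exact permutation p of 0.0357. The groups did not overlap, and the highest mutant value was that of replicate 8. This probe set lay near the array median and was above it on only 4 of 8 arrays. The second Ptgds probe set differed by 0.25 and overlapped. Nr5a1, the nuclear receptor that activates Amh with SOX9, differed by 0.13 (SE 0.078), Dmrt1 by 0.032, Sox8 by 0.060, and Zfpm2, the cofactor of GATA4, by 0.070. Of the 13 genes listed for the Rhox cluster beside Rhox5, 3 had probe sets here, and Rhox8 was not among them. Rhox13, a germ cell member, differed by 0.25 without overlap at an unadjusted p of 0.0060, Rhox6 by 0.23 and Rhox9 by 0.036, the latter pair at levels below the array median, and 0 passed the adjustment.

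Another 20 genes of Sertoli cell function gave 33 probe sets, of which 0 passed either threshold. Their median difference was 0.053, with 22 above 0. Shbg, the androgen binding protein of the tubule, differed by 0.15 (SE 0.071), and Trf, transferrin, by 0.18 (SE 0.22) with a mutant SD of 0.58. Ldhb, a lactate dehydrogenase subunit, differed by 0.14 on the probe set with the smallest p of this list.

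**Figure D5:**
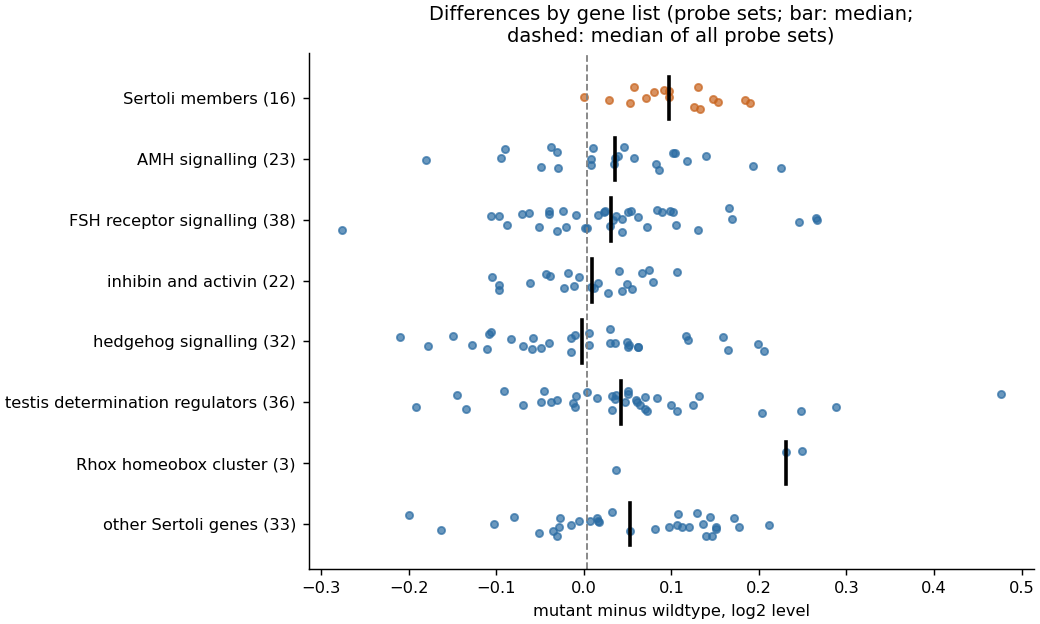
Mutant minus wildtype log2 level (horizontal axis) of every probe set of the 9 Sertoli genes (orange) and of 7 lists of related genes (blue, number of probe sets in brackets), with the median of each list as a bar and that of all probe sets dashed. The medians run from -0.0018 for the hedgehog list to 0.097 for the Sertoli genes, and to 0.23 for the 3 probe sets of the Rhox list.

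The 5 genes outside the list whose levels were most like the mean of the 9 were Tmem184a, with a Pearson's r of 0.99 over the 8 arrays, 3110080O07Rik at 0.98, and Sema7a, Cited4 and Acot13 at 0.97. They were picked as the highest of all probe sets, so the size of r is no test. Tmem184a ran from 10.30 to 10.59 and differed by 0.14 between mutant and wildtype testis, and Cited4 ran from 6.66 to 7.44 and differed by 0.30.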

How the data were processed

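Testis RNA of 8 samples was measured, with groups and replicate numbers taken from the sample titles. The authors deposited log2 levels per probe set and array, made with the Affymetrix Gene Expression Console, quantile normalisation and background correction by RMA. Versions and the genome build of the annotation are not given in the sources used here. The authors' own fold changes, p-values and group means were deposited too and were not used. The number of arrays limits the precision.

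Levels were used as deposited. All 45101 probe sets, 64 of them controls, entered 1 linear model per probe set (limma 3.58.1 under R 4.3.3, functions lmFit and eBayes). The tests were two-sided at a threshold of 0.05, adjusted over all probe sets after Benjamini and Hochberg. The fit was tested on simulated data. Single probe sets were also tested by exact permutation of the 8 arrays, with the smaller tail doubled. Tables and plots used Python 3.11.15, numpy 2.4.6, pandas 2.3.3 and matplotlib 3.10.9.

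Members were matched by the symbol in the deposited table, and list genes by Entrez ID in RefSeq's genes (GRCm38.p6), where 35498 of the 38810 probe sets that have an ID found a gene. As the main probe set of a gene, those free of a suffix for shared probes were preferred, and among them the one of highest mean level. Genes named were the 9 members, a fixed set of partners (Amhr2, Inhba, Inhbb, Fst, Acvr2a, Tgfbr3, Ptch1, Gli1, Smo, Nr5a1, Dmrt1, Sox8, Zfpm2, Shbg, Trf, Rhox8 and Foxl2, with 1 more that is not reported here), the gene of smallest p in each list, and the 5 most like the members' mean. The members and lists were chosen with earlier results of these data known. No value adjusted over the list alone is given. Alternatives were leaving out arrays, a block for the 2 arrays that stood apart, array weights, median centring, repeated quantile normalisation, an offset of 86.4 on the linear scale, filters on low and control probe sets, a robust prior with an intensity trend, a one-way comparison that shares no variance, and other probe sets.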

Additional observations from a re-analysis of the deposited data

Results flagged for a closer look

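In the wildtype group, whose 5 arrays allow the check, 2 of the 16 Sertoli probe sets had 1 array at a distance from the rest, where chance alone gives about 1 in 20, or 0.80 here. For Wt1 it was replicate 6, at 9.10, with the next wildtype value at 9.28. For Inha it was replicate 4, at 10.75, with the next wildtype value at 10.99. Wildtype replicates 6 (-17.7) and 4 (-23.8) also lay lowest of all arrays on the second principal component. The 3 mutant arrays were too few to be examined in this way.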

How the results depend on the processing

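No paired analysis was possible because the labels do not name the litters. The replicate numbers run on through both groups and carry no pairing. The count of 0 Sertoli probe sets past an adjusted p of 0.05 held under all 18 alternatives run. The count of 1 at an unadjusted p under 0.05 became 0 with each array centred on its median or quantile normalisation repeated, 2 with an intensity trend or a one-way comparison, and 3 with the offset on the linear scale or without both arrays that stood apart, and ranged from 0 to 2 leaving out 1 array. The genes behind it were Fshr, Clu, Inha and Dhh in different settings. The share of all probe sets at this threshold is not given for the alternatives. A higher or lower count therefore cannot be read as a stronger or weaker result for the Sertoli genes. The median difference of 0.097 was 0.16 without both arrays and ranged from 0.053, without mutant replicate 3, to 0.17, without mutant replicate 8. Its count of probe sets above 0 ranged from 11 of 16, without mutant replicate 3, to 16, and was 15 with each array centred on its median. Over all probe sets the share above 0 lay between 49% and 52.9% in these settings. The main probe sets of Sox9, Fshr, Clu, Inha, Dhh and Rhox5 kept their direction under every alternative run, while the Clu probe set that differed by 0.00036 did not in several settings, nor the Sox9 probe set below the array median without mutant replicate 3. Amh reversed to -0.020 without both arrays and ranged from -0.0016 to 0.14 leaving out 1 array, Wt1 from -0.0048 to 0.13, and Gata4 from -0.026 to 0.084. The cause was not tested.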
